A study of Mus musculus with 12 samples.

Results

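Fragments of spliceosomal small nuclear RNAs (snRNAs) were taken from 10 small RNA libraries of mouse epididymis and testis. A sequence was a member if a library listed it on the plus strand under an Rfam entry named U1, U2, U4, U5, U6, U7, U11, U12, U4atac or U6atac, or under a GenBank entry of class snRNA. These rules found 12448 distinct sequences among the 2439644 of the whole series, with 123873 of 127408620 classified reads, or 0.0972%. The study compared Gpx5-/- mice (KO) with wild-type mice (WT), all C57BL/6, where Gpx5 is the gene of a glutathione peroxidase secreted by the caput epithelium. The pairs were KO and WT caput at 2 months, KO and WT caput at 13 months, and KO and WT corpus, cauda and testis at 13 months. Per the labels' protocols, RNA of 7 KO and 7 WT animals at 13 months was pooled in place of replicates, so every group is 1 library, no test between genotypes was possible, and every interval below is a 95% counting interval that leaves animal variation out. Caput and cauda had been punctured and left in buffer for 15 min to let spermatozoa out, while corpus and testis were taken whole. In the caput transcriptome at 13 months the targeted gene itself, Gpx5, had 918 RPKM in KO and 8474 RPKM in WT.

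The spliceosome removes introns with the help of small RNAs that each work inside a protein particle. U1 pairs with the 5′ splice site, U2 pairs with the branch site, and U4, U5 and U6 join as a unit in which U6 later forms the catalytic core. A rarer, minor spliceosome uses U11, U12, U4atac and U6atac in their place together with U5. U7 has no part in splicing and acts in the 3′ end formation of histone messages. Whole snRNAs are too long for a fraction of 18 to 40 nt, so what was sequenced here were pieces of them. Several of these RNAs have many gene copies, and a fragment does not say which copy it came from.

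The members fell into an Rfam part and a GenBank part, and the GenBank entries were not all snRNAs by name. The Rfam entries held 81484 reads of 11111 distinct sequences, while the 21 GenBank entries held 42389 reads, or 34.2% of all member reads. A single GenBank entry took 78.3% of the GenBank reads, and its sequences were listed as rRNA for 29.4% of their reads across the libraries. Its most abundant sequence, shown here because it dominates the total, was listed as snRNA in 5 libraries and under other classes elsewhere.
Largest GenBank entry, 22 nt: ctcttagatcgatgtggtgctc
The next GenBank entry (8.22% of the GenBank reads) is Snord118 in RefSeq, a snoRNA gene, and 2 others are the protein-coding genes Usb1 and Tut1. The third entry, with 8.17% of the GenBank reads, was U12 by sequence, since 87.6% of its reads were identical to part of the U12 described below. For this reason the results below are given for the Rfam snRNAs, named by snRNA, and totals with GenBank entries are stated as such.

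Overlapping reads joined into longer RNAs. The assembled U1 had 164 bases, U2 189, U4 141, U5 116, U6 107, U7 62, U11 134, U12 151 and U6atac 125. RefSeq (GRCm38.p6) gives gene lengths of 164 bases for Rnu1a1, 187 for Rnu2-10, 116 for Rnu5g, 107 for Rnu6, 62 for Rnu7 and 150 for Rnu12, but 108 for Rnu11, shorter than the assembled U11. Only lengths were compared, since no full-length snRNA sequence was used here. A high share of reads on RNAs assembled from the same reads is built in and does not test the Rfam listing. With up to 2 mismatches, 95.9% of the U1 reads, 97.1% of the U2 reads and 99.8% of the U11 reads lay on these RNAs, against 73.0% for U4, 78.9% for U6atac and 85.4% for U6. The 3 RNAs that carry most of the results follow, 5′ to 3′, with capitals on the fragments discussed: bases 46 to 64 and 143 to 164 of U1, bases 16 to 46 and 170 to 187 of U2, and bases 118 to 151 of U12.
U1: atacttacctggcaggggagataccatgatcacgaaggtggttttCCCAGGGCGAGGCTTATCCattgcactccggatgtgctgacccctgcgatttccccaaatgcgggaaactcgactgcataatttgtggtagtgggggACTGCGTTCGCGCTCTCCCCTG
U2: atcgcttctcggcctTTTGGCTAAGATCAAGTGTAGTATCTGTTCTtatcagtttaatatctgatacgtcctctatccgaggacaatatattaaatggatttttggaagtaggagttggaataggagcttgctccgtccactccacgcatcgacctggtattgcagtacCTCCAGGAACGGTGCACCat
U12: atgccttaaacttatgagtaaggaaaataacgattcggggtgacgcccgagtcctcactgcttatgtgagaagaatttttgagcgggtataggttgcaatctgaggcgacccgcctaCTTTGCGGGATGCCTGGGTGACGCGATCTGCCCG

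For 8 of the snRNAs the sequence with the highest mean level over the 10 libraries, among reads listed under the Rfam entry, is given here, since these are the pieces a reader would look for in other data. Capitals mark the branch site pairing stretch in U2 (bases 33 to 38).
U1, 22 nt from base 143: actgcgttcgcgctctcccctg
U2, 31 nt from base 16: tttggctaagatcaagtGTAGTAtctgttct
U4, 19 nt, not placed: aaagaatgaatttatgaaa
U5, 34 nt from base 68: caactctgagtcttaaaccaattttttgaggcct
U7, 20 nt from base 43: acttcggtcggaaaacccct
U11, 25 nt from base 110: ggtgatcgttggtcccggcgccctt
U12, 27 nt from base 125: ggatgcctgggtgacgcgatctgcccg
U6atac, 19 nt, not placed: taaatatgtaagaagccct
Those of U1, U7, U11 and U12 reach the last base of their RNA, and those of U2 and U5 are internal. The U4 sequence has 9 mismatches to the assembled U4 at its best position and was listed at 23.7 RPM in KO and 14.4 RPM in WT testis. Of the U4 reads that could not be placed, 73.7% came from testis, against 34.02% of all U4 reads.

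By their listed reads, U2 was the most abundant Rfam snRNA and U1 came next. U12 was an exception to this listing: identical reads in any class numbered 6021, more than the 4258 of U6 and the 3520 of U5, and most stood under other entries, as described further down. Levels are read counts scaled to the classified reads of each library, as RPM, with classified reads from 3855476 in WT caput at 2 months to 29049669 in WT corpus, and a count of 0 allows up to 0.103 to 0.778 RPM, the level of 3 reads. Of the Rfam reads, U2 took 59.4%, U1 19.995%, U5 6.71%, U6 6.67%, U4 3.92%, U11 1.49%, U12 1.18%, U7 0.399% and U6atac 0.274%. No read of U4atac was listed in any library. These are fragments in a size class of 18 to 40 nt, and their levels do not give the levels of the whole snRNAs.

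**Figure D1:**
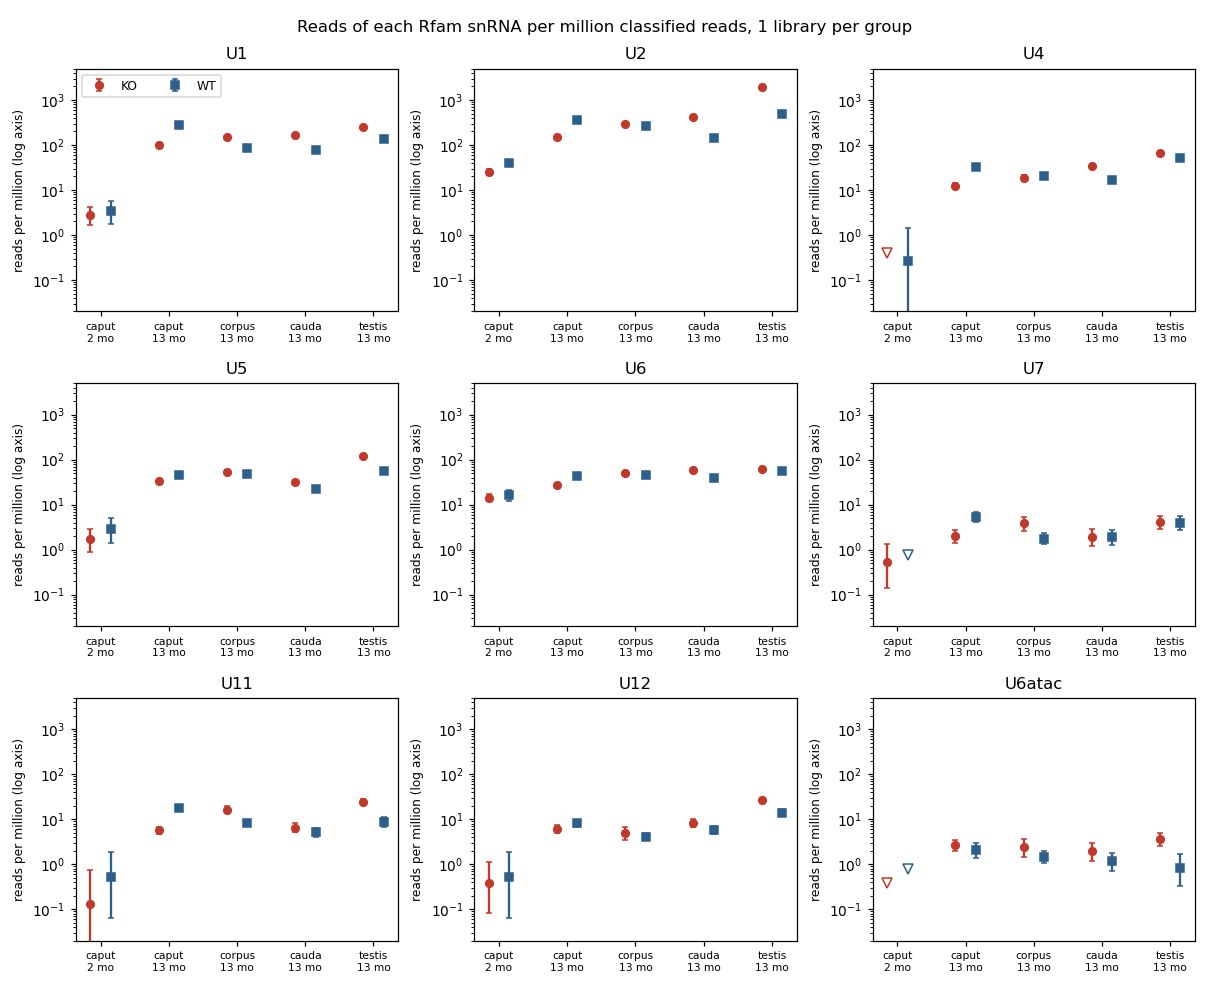
Level of each Rfam snRNA in RPM (log axis) in the 5 KO and WT pairs, with KO as circles left of WT as squares, exact Poisson 95% intervals as bars, and open triangles at the level of 3 reads where no read was listed. U2 stands highest in KO testis at 1931 RPM, and the 2-month caput libraries lie below the 13-month libraries for every snRNA.

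Summed over the Rfam snRNAs, the levels had their highest value in testis and their lowest in caput at 2 months. The sums were 45.0 RPM in KO and 63.5 RPM in WT caput at 2 months, 337 RPM in KO and 783 RPM in WT caput at 13 months, 589 RPM in KO and 481 RPM in WT corpus, 728 RPM in KO and 317 RPM in WT cauda, and 2484 RPM in KO and 818 RPM in WT testis. Relative to WT, KO was therefore lower in caput at both ages and higher in the other 3 tissues. The 2-month files were built differently (reads up to 47 nt, and 17537 to 23330 distinct sequences against 156671 or more at 13 months), so age and file build cannot be told apart. With GenBank entries included, the sums were 1340 RPM in KO and 1716 RPM in WT caput at 13 months. In caput at 2 months they were 243 RPM in KO and 139 RPM in WT, the opposite order to that of the Rfam snRNAs. That KO sum holds a 21 nt GenBank sequence at 164 RPM, which WT listed as rRNA at 181 RPM. For comparison, snoRNA fragments had 4900 RPM in KO and 6413 RPM in WT caput at 13 months, a ratio of 0.764 (0.757 to 0.771), and 6043 RPM in KO and 4232 RPM in WT testis, a ratio of 1.43 (1.41 to 1.45). In each of these 2 pairs the Rfam snRNA ratio, 0.430 (0.417 to 0.444) and 3.04 (2.96 to 3.12), lay outside the interval of the snoRNA ratio and on the same side of 1. In testis this rests on a single stretch of U2, without which the Rfam ratio was 1.45 (1.41 to 1.499), next to that of snoRNA.

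In testis a single stretch of U2 accounted for most of the difference between the genotypes. U2 had 1931 RPM in KO and 493 RPM in WT, a ratio of 3.92 (3.79 to 4.05). Exact U2 reads that start at base 16 had 1246 RPM in KO and 20.2 RPM in WT, and all the others together had 399 RPM in KO and 314 RPM in WT, a ratio of 1.27 (1.21 to 1.34). The 31 nt fragment shown above had 927 RPM in KO and 14.0 RPM in WT, a ratio of 66.2 (55.3 to 79.9), and the forms of 30 and 32 nt from the same base had 108 and 193 RPM in KO, against 1.87 and 3.74 RPM in WT. Outside testis the 31 nt fragment did not pass 4.63 RPM, its level in WT caput at 13 months. Without U2 reads starting at base 16, the sum of the Rfam snRNAs in testis was 1114 RPM in KO and 767 RPM in WT, a ratio of 1.45 (1.41 to 1.499).

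The first base of this U2 fragment differed between the testis libraries. The form beginning with T, as in U2, made up 92.5% (91.9% to 93.0%) of the 9857 reads in KO and 39.2% (33.7% to 44.9%) of the 306 reads in WT that held the same 30 bases after it. Forms with A, C or G in its place had 75.5 RPM in KO and 21.7 RPM in WT, a ratio of 3.48 (2.96 to 4.11), far below the ratio of 66.2 of the T form. WT caput at 13 months had 53.8% (44.4% to 63.0%) with T among 119 such reads. A fragment that begins with T and has 24 to 32 nt is also the usual build of piRNAs: 58.8% of the Rfam snRNA reads in KO testis and 31.0% in WT testis had it. These shares rest mostly on U2. In KO testis 73.1% of the U2 reads had it, but 3.57% (U6) to 17.5% (U12) of the other Rfam snRNAs. In WT testis it was 43.7% for U2 and 5.33% (U11) to 22.8% (U5) for the others with at least 20 reads. piRNA entries took 62.8% of the classified reads in KO and 64.1% in WT testis, and the 8 germ cell miRNAs had 26202 RPM in KO and 14226.5 RPM in WT; their part in the U2 difference was not tested. Files list only ranks with a matched entry, and 58.2% of the ranks at 10 RPM or more in KO testis and 55.9% in WT testis have no line, so a low value of a single sequence can also mean a missing line.

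Of the other snRNAs of testis, 3 were called higher and 5 were not called. Beside this, 9.33% of all 11377 single sequences at 10 RPM or more in that pair were higher and 14.5% lower. These are shares of sequences rather than of summed RNAs. rRNA fragments in testis had a ratio of 1.36 (1.35 to 1.37). U5, the RNA whose loop holds the exon ends, had 118.7 RPM in KO and 55.3 RPM in WT, a ratio of 2.14 (1.93 to 2.39). U11, the U1 counterpart of the minor spliceosome, had 24.4 RPM in KO and 8.75 RPM in WT, a ratio of 2.79 (2.14 to 3.66). U6atac, the U6 counterpart, had 3.56 RPM in KO and 0.817 RPM in WT from 35 and 7 reads, a ratio of 4.36 with a wide interval (1.91 to 11.6). U1, U4, U6, U7 and U12 were not called, with ratios of 1.84, 1.26, 1.12, 1.02 and 1.93. A second T-starting U2 fragment, of 29 nt from base 55, had 59.6 RPM in KO and 71.6 RPM in WT testis, so the T-starting pieces of U2 did not all move together.
U2, 29 nt from base 55: taatatctgatacgtcctctatccgagga

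**Figure D2:**
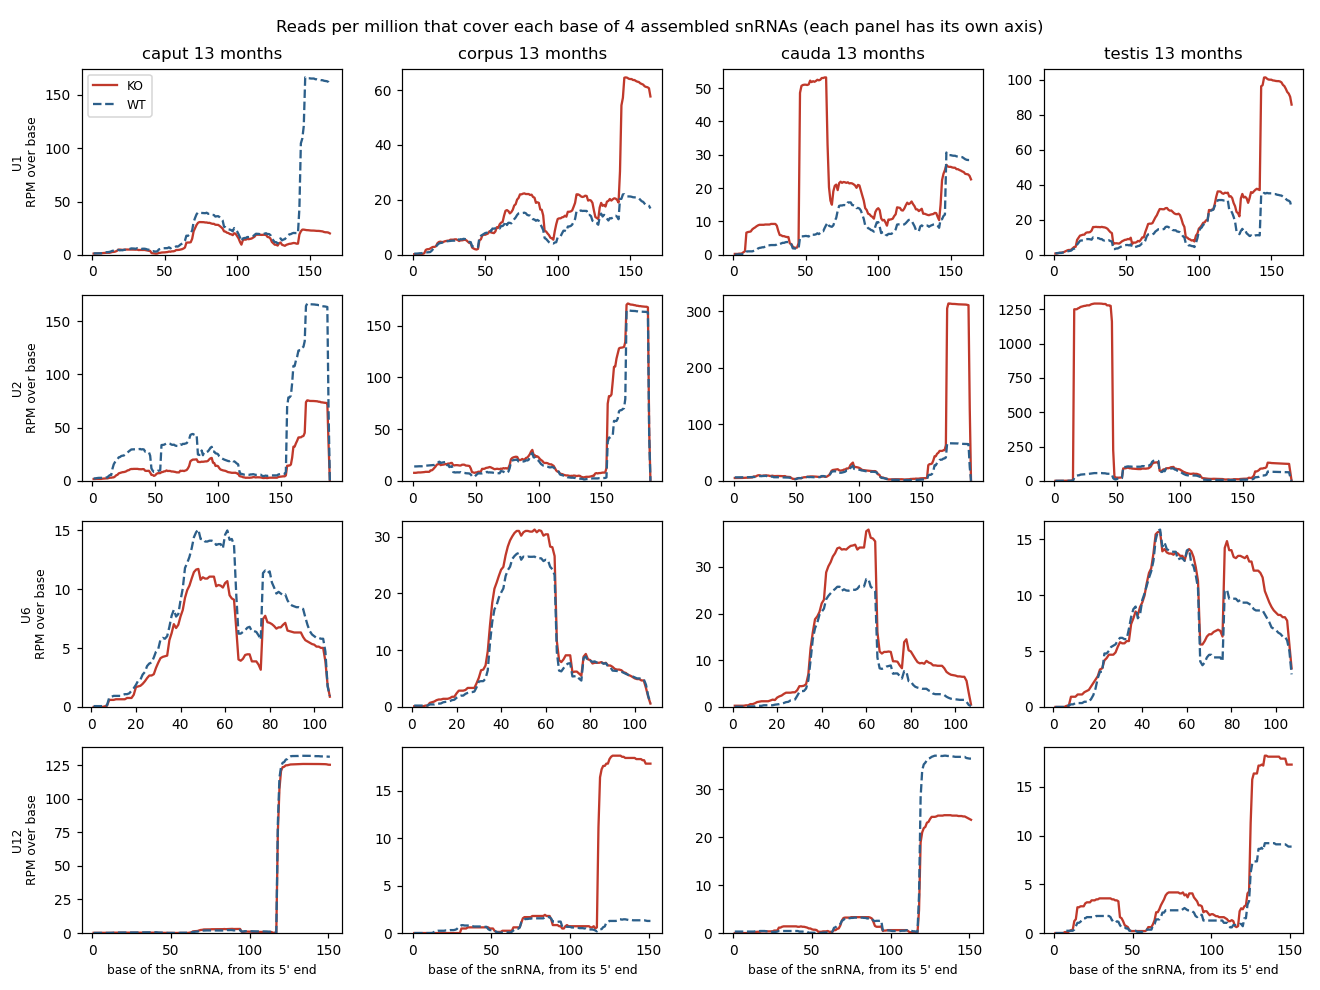
RPM of reads that cover each base (x axis, counted from the 5′ end) of U1, U2, U6 and U12 in the 4 tissues at 13 months, KO as solid and WT as dashed lines, for reads identical to the assembled RNA whatever class they are listed under. U2 in KO testis has a block over bases 16 to 46 and U1 in KO cauda a block from base 46, while 3′ ends stand out in U1, U2 and U12.

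In cauda the pieces from the 3′ end of U2 and from the middle of U1 were higher in KO. U2 had 414 RPM in KO and 145.7 RPM in WT, a ratio of 2.84 (2.71 to 2.99), U1 had 170 RPM in KO and 78.8 RPM in WT, a ratio of 2.15 (2.01 to 2.31), and U4 had 34.1 RPM in KO and 16.7 RPM in WT, a ratio of 2.04 (1.74 to 2.39). By exact placement in any class U1 had a ratio of 1.92 (1.77 to 2.08) and U4 of 1.99 (1.67 to 2.37), which ends both calls, and U2 without its top sequence in either library fell to a log2 ratio of 0.51. U5, U6, U7, U11, U12 and U6atac were not called, and all 6 ratios lay between 1.02 and 1.66. Beside this, 20.8% of all 1953 single sequences at 10 RPM or more in the cauda pair were higher and 7.17% lower. These are shares of sequences rather than of summed RNAs. rRNA fragments in cauda had a ratio of 1.54 (1.53 to 1.55). Exact U2 reads that reach base 187 had 310 RPM in KO and 64.9 RPM in WT, a ratio of 4.78 (4.47 to 5.13). U2 reads with neither that end nor the start at base 16 had 62.7 RPM in KO and 52.9 RPM in WT, a ratio of 1.18 (1.07 to 1.31). The 18 nt piece from base 170 alone had 137 RPM in KO and 10.7 RPM in WT cauda.

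U1 in KO cauda showed a block that no other 13-month library had at a like level. Reads starting at base 46 had 45.1 RPM in KO and 3.35 RPM in WT cauda, a ratio of 13.5 (10.2 to 18.1). In the other 13-month pairs this start had 0.599 RPM in KO and 1.74 RPM in WT caput, 3.11 RPM in KO and 3.65 RPM in WT corpus, and 0.712 RPM in KO and 0.584 RPM in WT testis. As a sum, U1 reads that reach base 164 went the other way in cauda, with 22.6 RPM in KO and 28.3 RPM in WT, a ratio of 0.799 (0.684 to 0.932). Most of that WT level was a single 18 nt piece, with 2.45 RPM in KO and 19.7 RPM in WT. The 21 nt piece had 7.68 RPM in KO and 0.0609 RPM in WT. A low value of a single sequence can also mean a missing line. The rest of U1 had 62.1 RPM in KO and 35.97 RPM in WT, a ratio of 1.73 (1.55 to 1.93). Cauda libraries also differed in cell type markers: the 5 epithelial miRNAs had 26772.5 RPM in KO and 2461 RPM in WT, and their part in these differences was not tested. In such pieces of tissue, fewer cells of a type and less RNA per cell cannot be told apart.

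In caput at 13 months 5 of the 9 Rfam snRNAs with reads were called lower in KO. Beside this, 62.3% of all 4598 single sequences at 10 RPM or more in that pair were lower, a share of sequences rather than of summed RNAs. rRNA fragments there had a ratio of 0.556 (0.552 to 0.560). U1 had 99.8 RPM in KO and 275 RPM in WT, which is 2.76-fold lower (ratio 0.362, 0.342 to 0.383). U2 had 148 RPM in KO and 354 RPM in WT, a ratio of 0.418 (0.399 to 0.438). U4 had 12.5 RPM in KO and 32.6 RPM in WT, U7 2.01 RPM in KO and 5.35 RPM in WT, and U11 5.66 RPM in KO and 18.1 RPM in WT, and these 5 were the ones called. U5 had 33.5 RPM in KO and 45.2 RPM in WT, U6 26.6 RPM in KO and 42.3 RPM in WT, U12 6.10 RPM in KO and 8.10 RPM in WT, and U6atac 2.67 RPM in KO and 2.10 RPM in WT, none of them past 2-fold. U4 reads identical to the assembled U4 had 10.2 RPM in KO and 15.8 RPM in WT, a ratio of 0.643 (0.526 to 0.785), and were not called.

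The caput difference of U1 lay almost wholly at its 3′ end. U1 reads reaching base 164 had 20.1 RPM in KO and 160 RPM in WT, a ratio of 0.125 (0.112 to 0.1401), and U1 reads with neither that end nor the start at base 46 had 62.4 RPM in KO and 79.7 RPM in WT, a ratio of 0.782 (0.720 to 0.850). U2 was lower in both parts, with 73.0 RPM in KO and 163 RPM in WT for reads that reach base 187, and 53.2 RPM in KO and 107 RPM in WT for the rest. The T-starting U2 pieces seen in testis were also lower: start 55 had 1.03 RPM in KO and 24.2 RPM in WT, and start 16 had 0.218 RPM in KO and 5.93 RPM in WT. These libraries differed in testis RNA as well, since piRNA entries took 0.655% of the classified reads in KO and 15.8% in WT caput, and the 8 germ cell miRNAs had 410 RPM in KO and 7535 RPM in WT. Their part in the snRNA differences was not tested. Of the U1 3′ pieces described next, those of 18 and 21 nt had at most 0.712 RPM in either testis library. The 22 nt piece had 51.8 RPM in KO and 18.2 RPM in WT testis. A low testis value of a single sequence can also mean a missing line.

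Single pieces of a nested set at the U1 3′ end were listed at very different levels in different libraries. Ranks at 10 RPM or more without a line made up 12.7% in KO and 39.5% in WT caput at 13 months and 13.8% to 22.02% in corpus and cauda, so whether a low value is a missing line could not be settled. All end at base 164 and share the 18 bases in capitals.
U1, 22 nt: actgCGTTCGCGCTCTCCCCTG
U1, 21 nt: ctgCGTTCGCGCTCTCCCCTG
U1, 19 nt: gCGTTCGCGCTCTCCCCTG
U1, 18 nt: CGTTCGCGCTCTCCCCTG
The 22 nt piece had 8.50 RPM in KO and 23.3 RPM in WT caput at 13 months, 11.1 RPM in KO and 6.78 RPM in WT corpus, 4.54 RPM in KO and 2.68 RPM in WT cauda, and 51.8 RPM in KO and 18.2 RPM in WT testis. One base shorter, the 21 nt piece had 2.51 RPM in KO and 59.8 RPM in WT caput, 21.9 RPM in KO and 0.172 RPM in WT corpus, 7.68 RPM in KO and 0.0609 RPM in WT cauda, and 0.712 RPM in KO and no read in WT testis. The 18 nt piece had 0.163 RPM in KO and 46.5 RPM in WT caput, 2.45 RPM in KO and 19.7 RPM in WT cauda, and 0.598 RPM or less in either corpus or testis library. The 22 nt piece was thus found at 2.68 RPM or more in all 8 libraries at 13 months, and a 20 nt piece was also listed in all 8, at 1.28 to 5.39 RPM. The pieces of 21 and 18 nt, by contrast, were abundant in some libraries and near or under the level of 3 reads in others. Variants with 1 mismatch went in the same direction as the 21 nt piece but by less, with 0.490 RPM in KO and 2.68 RPM in WT caput, and 2.75 RPM in KO and 0.138 RPM in WT corpus. For the 18 nt piece in caput such variants had 1.20 RPM in KO and 3.04 RPM in WT, a ratio of 0.394 against 0.00351 for the piece itself.

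**Figure D3:**
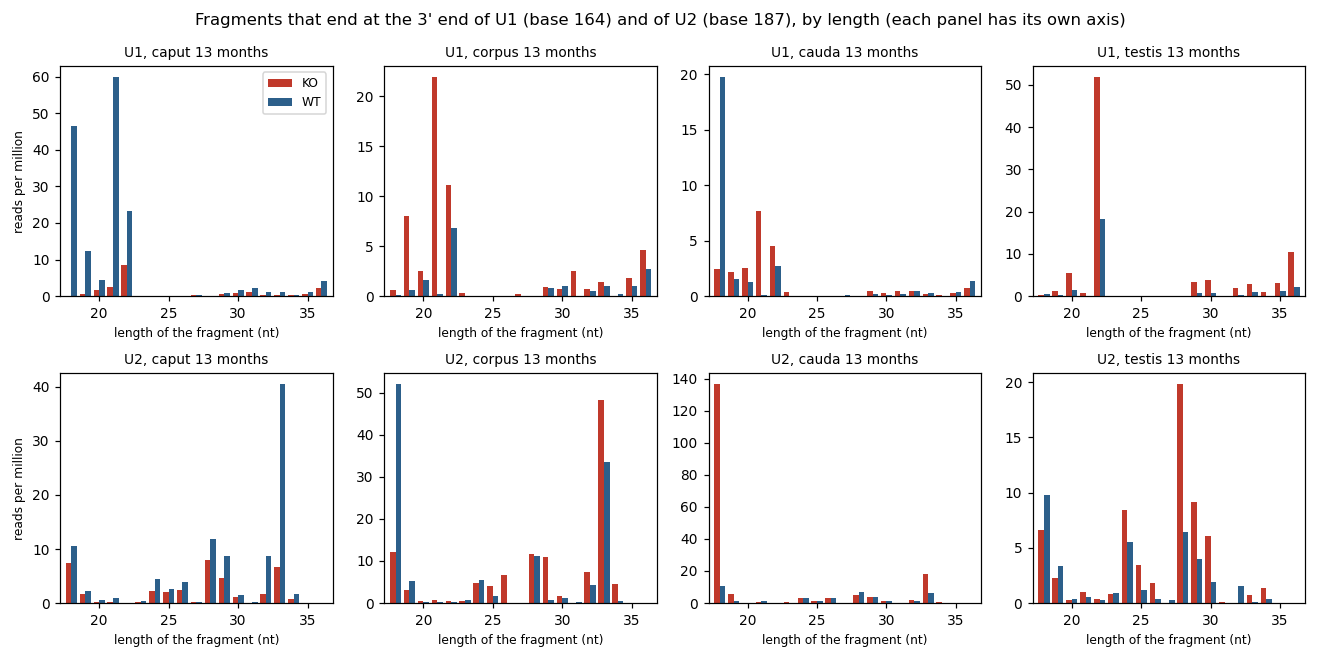
RPM of fragments that end at base 164 of U1 (top) and base 187 of U2 (bottom), by fragment length, in the 4 tissues at 13 months, KO bars left of WT bars. In U1 the 22 nt piece is present in all panels while the 18 and 21 nt pieces change from library to library, and in U2 the 18 nt piece dominates KO cauda at 137 RPM.

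In corpus the U1 3′ end was higher in KO and the U2 total was close to equal. U2 had 287 RPM in KO and 264 RPM in WT corpus, a ratio of 1.09 (1.04 to 1.14), and U1 had 152 RPM in KO and 87.3 RPM in WT, a ratio of 1.74 (1.62 to 1.86). U1 reads reaching base 164 had 57.7 RPM in KO and 16.9 RPM in WT, a ratio of 3.42 (3.01 to 3.89). Among them the 21 nt piece had 21.9 RPM in KO and 0.172 RPM in WT, and the 19 nt piece 8.02 RPM in KO and 0.654 RPM in WT. The 22 nt piece had 11.1 RPM in KO and 6.78 RPM in WT. Whether the low WT values are missing lines could not be settled. U7 was the only snRNA called by its listed reads, with 3.83 RPM in KO and 1.76 RPM in WT from 32 and 51 reads, a ratio of 2.18 (1.36 to 3.46). U11, with 16.4 RPM in KO and 8.33 RPM in WT, had a ratio of 1.97 (1.58 to 2.44) and so just missed the call. U4, U5, U6, U12 and U6atac had ratios from 0.911 to 1.66 and were not called. The corpus libraries also differed in rRNA fragments, with 16325 RPM in KO and 6513 RPM in WT, in mitochondrial reads, with 2980 RPM in KO and 10828 RPM in WT, and in the 4 leukocyte miRNAs, with 775 RPM in KO and 2339 RPM in WT, and their part was not tested.

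At 2 months the caput libraries held few snRNA reads, with 345 Rfam reads in KO and 245 in WT. U2 had 25.2 RPM in KO and 39.9 RPM in WT, a ratio of 0.630 (0.507 to 0.783), and U6 had 14.3 RPM in KO and 16.1 RPM in WT. U1 had 2.74 RPM in KO and 3.37 RPM in WT and U5 1.69 RPM in KO and 2.85 RPM in WT. None of these 4, the snRNAs with at least 20 reads in the pair, was called. The other snRNAs had 4 reads or fewer in each library, and differences between the genotypes were not detectable at this depth. Reads of 33 nt and more made up 57.4% of the Rfam snRNA reads in KO and 66.1% in WT caput at 2 months, against 4.67% to 19.8% in the 13-month libraries.

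U12 stood out by how it was listed. In all 64 cases with at least 20 reads in a library, reads identical to U1, U2, U4, U5, U6, U7, U11 or U6atac were listed 100% under their own Rfam family. Reads identical to U12 were listed under Rfam U12 for only 4.10% in KO and 5.37% in WT caput at 13 months, and for 86.1% in KO and 82.0% in WT testis. In KO caput 58.2% stood under an entry of class unknown and 34.5% under a GenBank snRNA entry, while in WT caput 90.4% stood under the GenBank snRNA entry. Small shares were listed as piRNA, from 2.75% in KO corpus to 15.6% in WT corpus over the 13-month libraries.
U12, 34 nt from base 118: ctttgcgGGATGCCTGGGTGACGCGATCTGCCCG
U12, 33 nt from base 119: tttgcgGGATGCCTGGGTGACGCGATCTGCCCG
U12, 27 nt from base 125: GGATGCCTGGGTGACGCGATCTGCCCG
Capitals mark the 27 bases these pieces share. The 34 nt piece had 75.6 RPM in KO and 81.8 RPM in WT caput and the 33 nt piece 31.3 RPM in KO and 33.1 RPM in WT caput. The 27 nt piece, by contrast, was at 0.327 RPM in KO and 1.45 RPM in WT caput but at 7.02 RPM in KO and 2.92 RPM in WT testis, where the 34 nt piece had 1.53 RPM in KO and 0.117 RPM in WT.

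Counted by sequence whatever the class, U12 was highest in caput at 13 months and nearly equal between the genotypes there. It had 130 RPM in KO and 136 RPM in WT caput at 13 months, a ratio of 0.957 (0.900 to 1.02), beside 6.10 RPM in KO and 8.10 RPM in WT when only the Rfam listing was counted. Corpus had 21.8 RPM in KO and 4.41 RPM in WT, a ratio of 4.94 (3.92 to 6.25), where the Rfam listing gave 4.91 RPM in KO and 4.13 RPM in WT and no call. Cauda had 30.2 RPM in KO and 41.5 RPM in WT, a ratio of 0.728 (0.638 to 0.830), where the Rfam listing gave 8.12 RPM in KO and 5.72 RPM in WT and thus the opposite order. Testis had 27.9 RPM in KO and 14.9 RPM in WT, a ratio of 1.86 (1.51 to 2.32). Caput at 2 months had 5 reads in KO and 3 in WT. The corpus difference lay in reads that reach base 151, with 17.8 RPM in KO and 1.27 RPM in WT, while the rest of U12 had 3.95 RPM in KO and 3.13 RPM in WT. In WT corpus the 34 nt piece had 5 reads and its variants with 1 mismatch had 13, whereas in KO corpus the piece had 88 reads and the variants 6.

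**Figure D4:**
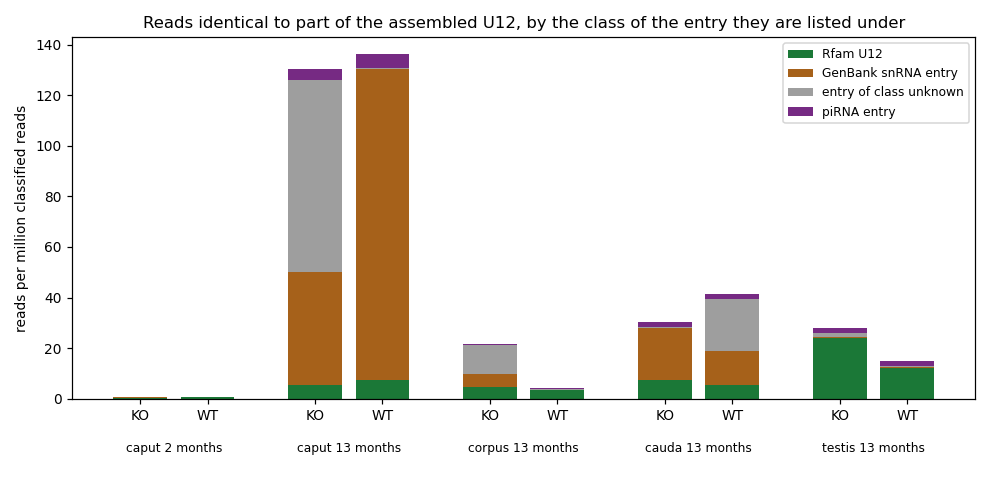
Reads identical to part of the assembled U12, in RPM, stacked by the class of the entry each library lists them under, with KO bars left of WT bars in each pair. Both caput libraries at 13 months exceed 130 RPM, almost none of it under Rfam U12.

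How often fragments reached the 3′ end differed widely between the snRNAs. Of reads identical to the assembled RNA, 90.1% of U12, 78.4% of U7, 40.4% of U1, 40.2% of U2 and 21.8% of U11 reached the last base (base 187 or beyond in U2), against 3.24% of U5, 2.84% of U6, 1.92% of U6atac and 0.937% of U4. These shares pool libraries that differ: for U12 the share was 28.9% in WT corpus, 62.0% in KO and 59.4% in WT testis and 96.2% in KO and 96.4% in WT caput at 13 months. The assembled U6 ends in a run of T at base 107, so its share depends on how much of that run is required. Base 104 of U6 was reached by 4.44% of its reads in WT cauda to 23.5% in KO testis over the 13-month libraries. Reads from the first base made up 12.02% of U4 and 6.02% of U5 but 0.543% of U1, whose bases 3 to 11 pair with the 5′ splice site. Among U2 reads the share at the 3′ end was 7.52% in KO and 18.8% in WT testis and 82.8% in KO and 54.9% in WT cauda. Median lengths over all libraries were 20 nt for U7, 21 nt for U4, 22 nt for U1, 23 nt for U6atac, 25 nt for U11, 26 nt for U5, U6 and U12, and 29 nt for U2.

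Many U2 fragments carried an A after base 187. In mammals the last adenosine of U2 is added after transcription and is not in the gene, and the RefSeq gene Rnu2-10 ends with 187 bases. Among U2 reads that hold the last 12 bases up to base 187, the share that ended in exactly 1 extra A was 43.5% (40.9% to 46.03%) in KO and 36.5% (34.6% to 38.4%) in WT caput at 13 months, and 28.5% (26.3% to 30.9%) in KO and 26.9% (25.7% to 28.1%) in WT corpus. It was 39.6% (38.01% to 41.2%) in KO and 36.1% (33.3% to 38.9%) in WT cauda, and 43.0% (40.5% to 45.6%) in KO and 37.8% (34.03% to 41.7%) in WT testis. KO was thus the higher of each pair at 13 months, and the intervals of KO and WT overlapped in corpus, cauda and testis but not in caput. A C after base 187 was rarer, with 13.9% in KO and 9.02% in WT testis and 2.40% to 6.69% in the other 13-month libraries.

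Few single snRNA sequences reached 10 RPM, and their calls were read against all sequences of the same pair. In testis 16 of 5313 listed members reached 10 RPM in a library, 10 were called higher and 0 lower in KO, while 9.33% of all 11377 such sequences were higher and 14.5% lower. These 10 include the U2 fragment from base 16 at 30, 31 and 32 nt and its forms with A, C or G first, which are not separate pieces. The others were pieces that reach the 3′ end of U1 or U2. Among the 19 tested in caput at 13 months 1 was higher and 8 were lower, beside 4.89% higher and 62.3% lower of all 4598. Corpus had 5 higher and 1 lower of 10, beside 21.4% higher and 18.8% lower of all 2398. Of these 5, 3 were among the 8 Rfam sequences tested. The other 2 were GenBank members that KO listed as rRNA. Cauda had 5 higher and 2 lower of 10, beside 20.8% higher and 7.17% lower of all 1953. At 2 months 0 were higher and 3 lower of 4, all GenBank members, beside 10.5% higher and 37.7% lower of all 883. These 3 each differ in a single base from the other one tested, which was not called at a ratio of 0.910. They are not separate pieces.

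The sequences with the largest ratios were mostly U1 and U2 pieces. In caput at 13 months the lowest ratios were 0.00351 (U1, 18 nt), 0.0381 (U2 from base 55) and 0.0419 (U1, 21 nt). The only higher one was a 33 nt GenBank member, which KO listed as rRNA. Corpus had a 20 nt GenBank member at 37.8 RPM in KO, where it was listed as rRNA, and 0.0688 RPM in WT. The U1 21 nt piece had a ratio of 127 there. The U2 34 nt piece from base 155 had 12.9 RPM in KO and 0.413 RPM in WT corpus. The only lower one in corpus was the U2 18 nt piece, at 12.2 RPM in KO and 52.0 RPM in WT. In cauda the U1 pieces from base 46 of 20 and 19 nt had ratios of 16.4 and 13.7 and the U2 18 nt piece 12.8, and the lower ones were the U1 18 nt piece at a ratio of 0.124 and the 22 nt GenBank sequence at 0.486. In 27 of 27 such calls of Rfam sequences over the 4 tissues at 13 months, reads with 1 mismatch to the sequence moved in the same direction, and in 18 of them past 2-fold with an interval that left out 1. For 3 of the 27, the forms of the U2 fragment with A, C or G first, these reads include the abundant form with T. Those of the T form in turn include these 3 forms. Reads with 1 mismatch can also be misread copies of the sequence itself, so they are no separate measure for any of the 27.

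In the caput transcriptome at 13 months the genes of the splicing particles were mostly alike in KO and WT, with 11 lower ones. Of 100 listed genes 99 had at least 1 RPKM in a library. By a difference of at least 1 in log2(RPKM + 1), KO minus WT, 0 were higher and 11 lower, or 11.1%, where 2.76% of all 15026 genes tested were higher and 22.2% lower. The median difference was -0.12 for the list and 0.05 for all genes. These were values of 1 library per genotype with no replicate check.

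The genes that bind snRNAs directly stayed near equal apart from a few. Of the 8 Sm core genes, whose proteins form the ring on U1, U2, U4 and U5, 1 was lower: Snrpf had 5.30 RPKM in KO and 31.3 RPKM in WT, a difference of -2.36. Its ring partner Snrpe had 45.1 RPKM in KO and 31.4 RPKM in WT, a difference of 0.51. Among 8 tested LSm genes, which build the ring on U6 and part of that on U7, Lsm2 had 3.04 RPKM in KO and 33.3 RPKM in WT, a difference of -3.09, while Lsm7 had 26.1 RPKM in KO and 16.2 RPKM in WT. None of the 3 U1, 12 U2 and 16 U4, U5 and U6 particle genes was called. The largest differences there were -0.91 for Snrpc of the U1 particle (8.88 RPKM in KO and 17.5 RPKM in WT), 0.87 for Sf3b6, which touches the branch site (17.8 RPKM in KO and 9.24 RPKM in WT), and -0.93 for Ppih of the U4/U6 particle (2.86 RPKM in KO and 6.37 RPKM in WT). Of 8 minor spliceosome genes, Snrnp35, a U11 partner, was lower with 4.67 RPKM in KO and 12.9 RPKM in WT, a difference of -1.29.

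The other 8 lower genes make or assemble snRNAs. Their shares were 15.4% and 22.2% of the lists below, where 22.2% of all genes were lower. Of 26 genes for transcription and processing 4 were lower: Larp7, of the La-related family that binds small RNA tails, had 8.43 RPKM in KO and 88.3 RPKM in WT, and the Integrator subunits Ints10, Ints6 and Ints13, whose complex cuts snRNA 3′ ends, had differences of -2.03, -1.73 and -1.02. Of 18 assembly and transport genes 4 were lower: Coil, the scaffold of Cajal bodies, had 2.64 RPKM in KO and 35.0 RPKM in WT, Ddx20 of the SMN complex had 8.40 RPKM in KO and 60.5 RPKM in WT, and Gemin4 and Gemin5 of the same complex had differences of -1.71 and -1.32. Smn1 itself had 3.98 RPKM in KO and 3.98 RPKM in WT. Spermatid markers were lower in the same comparison for 12 of 12 genes (summed 168 RPKM in KO and 11631 RPKM in WT), as were Leydig cell markers for 6 of 6 (11.8 RPKM in KO and 362 RPKM in WT). Of 10 caput epithelium markers 7 were higher and 1, Gpx5, lower. The part of these cell types in the 11 lower genes was not tested.

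**Figure D5:**
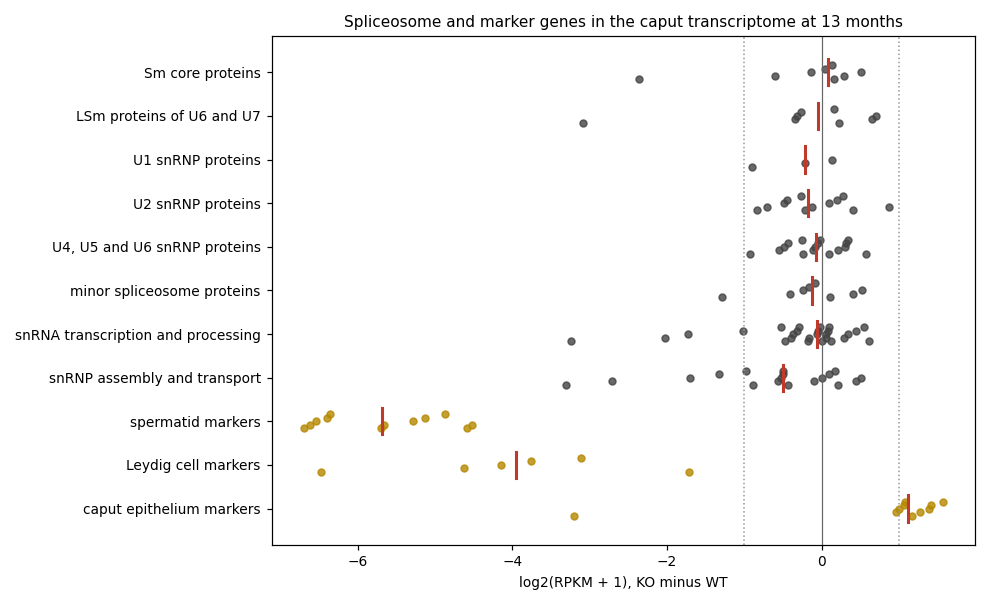
Differences in log2(RPKM + 1), KO minus WT, of the tested genes of 8 spliceosome lists (dark points) and 3 marker lists (yellow points) in the caput transcriptome at 13 months, with the median of each list as a bar and dotted lines at -1 and 1. Medians of the spliceosome lists lie between -0.50 and 0.09, and the spermatid median at -5.68.

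The transcriptome table also held 4 snRNA genes, whose order between genotypes was not that of the fragments in every case. Rnu1b2, a U1 gene, had 273 RPKM in KO and 464 RPKM in WT, and U1 fragments were lower in KO as well. Rnu12 had 89.5 RPKM in KO and 50.6 RPKM in WT, against nearly equal U12 fragments. Rnu11 had 9.97 RPKM in KO and 5.16 RPKM in WT, although U11 fragments had 5.66 RPM in KO and 18.1 RPM in WT. Rnu7 had 2.11 RPKM in KO and 2.46 RPKM in WT. None of the 4 reached a difference of 1 in log2(RPKM + 1), and in the authors' deposited table the GFOLD value was 0.49 for Rnu12 and 0 for Rnu11.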

How the data were processed

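A small RNA fraction of 18 to 40 nt, per the labels, was measured in 10 libraries (reads of up to 47 nt in the 2-month files) and the caput transcriptome in 2. The small RNA files deposited by the authors hold a read count for each distinct sequence with a matched entry and up to 2 mismatches, per the file headers. Per the submitters' processing notes, which give no roles, the authors' tools included TopHat2 and Bowtie 0.12.7, with mm9 as the genome build. RPKM values per transcript were deposited by the authors, with log2 fold changes and GFOLD values from GFOLD 1.1.3, per the file headers, and a further deposited column, E-FDR, stands in for a p-value but holds 1 for each of the 28344 transcripts, so it was not used. In the 2-month files some ranks and counts are written as a date, and those counts were read from the month (56 member lines in KO and 53 in WT).

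From these files, reads of each snRNA were summed on the plus strand and divided by the classified reads of the library. Levels have exact Poisson intervals, shares exact Clopper-Pearson intervals and KO over WT ratios exact conditional binomial intervals, all at 95%. Reads carry no molecular identifiers, so intervals and the floor of 3 counts cover counting error only. A ratio was called at 2-fold with an interval that leaves out 1, and single sequences needed 10 RPM in a library of the pair, summed over all classes. snRNAs were assembled from the member reads of all libraries by overlaps of 12 bases, starting from the most abundant read without a mismatch, and reads were placed without gaps. Regions within an snRNA were counted from exact reads of any class. Transcripts were reduced to 22051 genes by the highest mean RPKM, with names from RefSeq for 27575 transcripts, and genes that reached 1 RPKM in either library were called where log2(RPKM + 1) differed by 1 or more. Sequences came from the deposited files. Python 3.11.15, pandas 2.3.3 and scipy 1.17.1 were used, and the calls, assembly and placement were tested on simulated data.

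The rule for named items takes the sequence with the highest mean RPM of each snRNA (that of U6 is not reported here), up to 3 called sequences in each direction and pair, Gpx5, and up to 3 genes in each direction and list at 5 RPKM or more. The regions, the single-mismatch variants, the first base of the U2 fragment and the U2 tail were chosen after their values were seen. Members and lists were chosen with earlier results of these data known.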

Additional observations from a re-analysis of the deposited data

Results flagged for a closer look

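By their listed reads, several snRNAs were called in opposite directions in KO in different tissues. Since each group is 1 library, these differences between tissues were not tested. For the sum of the Rfam snRNAs the log2 ratio of KO over WT was 1.20 in cauda and -1.22 in caput at 13 months, a difference of 2.42, and it was 1.60 in testis, a difference of 2.82 from caput. U1 had 1.11 in cauda and -1.46 in caput at 13 months, a difference of 2.57. U2 had 1.51 in cauda and 1.97 in testis, which differ by 2.76 and 3.23 from the -1.26 of the 13-month caput. For U4 the values were 1.03 in cauda and -1.39 in caput at 13 months, a difference of 2.42. U7 had 1.13 in corpus and -1.41 in caput at 13 months, a difference of 2.53, and U11 had 1.48 in testis and -1.67 in caput at 13 months, a difference of 3.15. By exact placement U4 was not called in caput at 13 months (ratio 0.643) or cauda (1.99), nor U1 in cauda (1.92). These calls of U7 and U11, and those of U2 in caput and cauda, stayed. Without U2 reads starting at base 16, exact U2 reads and the Rfam sum had testis ratios of 1.27 and 1.45, short of a call.

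Minus-strand snRNA reads were outside the comparisons above. In cauda they had 19.7 RPM in KO and 8.76 RPM in WT, a ratio of 2.25 (1.82 to 2.80), close to the ratio of 2.31 of the plus-strand members. Only pairs at least 2-fold higher in KO were flagged. Caput at 13 months had 8.06 RPM in KO and 30.4 RPM in WT, where the plus-strand members had a ratio of 0.781. Corpus had 16.9 RPM in KO and 14.7 RPM in WT, and testis 68.4 RPM in KO and 62.9 RPM in WT.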

How the results depend on the processing

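No paired analysis was possible because each group compared within a tissue is 1 library; a fit across the 5 pairs, which would assume 1 effect for all tissues, was not run. The log2 ratio of KO over WT for all members was 0.80 for the 2-month caput, -0.36 for the 13-month caput, 0.26 for corpus, 1.21 for cauda and 1.18 for testis. In that order of pairs it became -0.62, -1.04, 0.37, 1.09 and 0.88 without the most abundant sequence of either library, -0.50, -0.99, 0.37, 0.69 and 0.63 without the top 10, and 1.396, -0.29, -0.072, 1.53 and 1.404 for sequences with at least 5 reads. Sequences matched without a mismatch gave 1.98, -0.28 and 0.31 in the first 3 pairs and 1.49 in testis, and distinct sequences at equal depth gave -0.52 and -0.63 in caput, 0.44 in cauda and 0.52 in testis. Rfam entries alone gave -0.50 and -1.22 in caput and 1.60 in testis, and every sequence ever listed as snRNA gave -0.37 for the 2-month caput, 0.79 for corpus, 0.58 for cauda and 1.27 in testis. Exact placement in any class, chosen after seeing the data, gave -0.16, -0.90, 0.35, 1.12 and 1.91, and without U2 reads starting at base 16 it gave -0.16, -0.89, 0.35, 1.12 and 0.58. Against miRNA reads the values were -0.84 for the 13-month caput, 0.34 for corpus and 1.104 for cauda, without piRNA and mRNA in the base -0.64 in caput at 13 months and 1.13 in testis, and with both strands 1.15 in testis. In caput at 2 months, reads of 18 to 36 nt gave 1.01 and leaving out dated counts 1.11. The sign therefore changed in caput at 2 months and, with at least 5 reads, in corpus. In caput at 2 months the count of all members holds a 21 nt GenBank sequence in KO only. It had 164 RPM in KO, listed as snRNA, and 181 RPM in WT, listed as rRNA. The causes of the sign changes were not tested further.

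The 5 snRNAs lower in caput at 13 months became 3 without mismatches to the matched entry, where U7 turned to a log2 ratio of 1.33 from 7 KO and 2 WT reads. Reads identical to the assembled U7 numbered 32 in KO and 62 in WT, a ratio of 0.389 (0.245 to 0.605), which was still called lower. The 1 higher in corpus became 2 against miRNA reads and by exact placement, which left U2 as the 1 of the 3 in cauda. Single sequences at 5 RPM were 6 lower at 2 months, 2 higher in caput at 13 months, 8 higher and 2 lower in corpus, 12 higher in cauda and 20 higher in testis. At 20 RPM they were 0 lower at 2 months, 0 higher and 5 lower in caput at 13 months, 3 higher in corpus, and 2 higher and 1 lower in cauda. Of 326 values of single snRNAs under other settings, 202 stayed within their counting interval and 25 changed sign. Depth limits the 2-month pair and the rarer snRNAs most.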

Other observations

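U6 fragments that hold the 12 bases up to base 102 and then only T ended in a run of T whose mean length was 3.98 in KO and 4.05 in WT testis, against 3.07 to 3.36 in the 6 epididymal libraries at 13 months. Runs of 5 T made up 41.5% in KO and 44.6% in WT testis and 8.0% to 16.9% in those of the epididymis, and the smallest of these libraries had 26 such reads.

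U2 reads that start at base 55 had 3.11 RPM in KO and 0.103 RPM in WT corpus from 26 and 3 reads, and 0.961 RPM in KO and 1.3997 RPM in WT cauda from 11 and 23 reads.

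Erythroid miRNAs, a further marker list, had 59.1 RPM in KO and 61.4 RPM in WT corpus.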
